A study of Rattus norvegicus with 6 samples.

Results

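The miRNAs miR-10 and miR-196 are encoded inside the Hox gene clusters, and they were followed here in exosomes released by neonatal rat cardiac fibroblasts and in the fibroblasts themselves. Every entry of the count table named miR-10a, miR-10b, miR-196a, miR-196b or miR-196c was taken, whichever arm of the hairpin it came from. This gave 10 of the 728 mature miRNAs listed, a 5p and a 3p entry for each of 5 hairpins. The exosome group held 3 libraries of RNA from vesicles that were purified from culture medium by centrifugation, filtration and ultracentrifugation. The fibroblast group held 3 libraries, numbered 1, 2 and 4, of RNA from the cells. All cells came from hearts of Wistar rats at postnatal day 1 to 2, were grown with 10% fetal bovine serum, and conditioned the medium for 48 h with 1% serum depleted of exosomes. The labels name no genotype or drug and do not say whether libraries came from separate cultures; a p-value here refers to the spread of these libraries, which may be technical. Of the exosome libraries, 2 are numbered 1 and 2, and the column of the other carried no number, so it is called the unnumbered exosome library.

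Hox genes encode transcription factors that give cells their position along the body axis, and miR-10 and miR-196 hairpins lie between Hox genes and are transcribed from the same clusters. Dicer cuts a hairpin into a 5p and a 3p arm; usually the guide arm is kept in Argonaute, where bases 2 to 8 (the seed) pair with target messenger RNAs, and the other arm is lost. miR-196 is known for cleaving the Hoxb8 messenger RNA in mouse embryos, and miR-10b for repressing HOXD10 in human breast cancer cells.

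In gene order on the RefSeq rat assembly GRCr8, the miR-10a gene lay between Hoxb5 and Hoxb4 and the miR-196c gene between Hoxb13 and Hoxb9, both on chromosome 10. The miR-10b gene lay next to Hoxd4 and Hoxd3 on chromosome 3, the miR-196a gene between Hoxc10 and Hoxc9 on chromosome 7, and the miR-196b gene between Hoxa9 and Hoxa10 on chromosome 4. The submitters' processing notes name another build, rn5, so no coordinates are given. Mature sequences for 9 of the 10 entries were taken from RefSeq (GRCr8); miR-196a-3p is named only. The 5p sequences are shown first because the families are defined by them, with the seed in capitals.
miR-10a-5p: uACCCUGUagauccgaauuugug
miR-10b-5p: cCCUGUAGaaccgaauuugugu
miR-196a-5p: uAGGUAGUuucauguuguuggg
miR-196b-5p: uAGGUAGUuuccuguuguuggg
miR-196c-5p: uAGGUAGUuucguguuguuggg

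The 3 miR-196 5p sequences shared the seed AGGUAGU and were 22 bases long. They differed from each other at a single position, counted from 1 at the 5′ end: A12C between miR-196a-5p and miR-196b-5p, A12G between miR-196a-5p and miR-196c-5p, and C12G between miR-196b-5p and miR-196c-5p. The miR-10b-5p entry began 2 bases further along than miR-10a-5p, and over the 21 bases they share the sequences differed only by U12A, counted on miR-10a-5p. Its listed seed is therefore CCUGUAG against ACCCUGU in miR-10a-5p, but the 2 bases before it in its hairpin are UA, and a molecule starting there would carry the miR-10a seed. How reads that fit several of these entries were assigned is not given in the sources used here, so the split between paralogues is uncertain. The opposite arms are shown because the balance of arms is compared for each hairpin, with the seed in capitals again.
miR-10a-3p: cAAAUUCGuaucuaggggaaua
miR-10b-3p: aCAGAUUCgauucuaggggaa
miR-196b-3p: uCGACAGCacgacacugccuuca
miR-196c-3p: aCAACAACaccaaaccaccuga

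No seed was shared among these 3p arms or between a 3p arm and a 5p arm. The miR-10 hairpins, whose arm balance differed between the groups, are printed with the mature arms in capitals.
Mir10a: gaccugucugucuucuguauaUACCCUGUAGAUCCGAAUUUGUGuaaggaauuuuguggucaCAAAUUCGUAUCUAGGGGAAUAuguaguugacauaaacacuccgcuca
Mir10b: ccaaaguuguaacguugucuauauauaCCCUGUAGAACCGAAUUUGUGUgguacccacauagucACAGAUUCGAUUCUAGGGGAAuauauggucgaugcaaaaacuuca

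Total miRNA counts lay between 113129 and 120224 in the exosome libraries and between 2439559 and 12508651 in the fibroblast libraries. Most exosome counts, 84.9% to 90.1%, came from miR-873-3p, which took 0.391% to 2.37% of the fibroblast counts. An entry with 0 counts could still hold up to 0.00265% of the shallowest exosome library (3 counts of its total). The 8 fibroblast and mesenchymal markers summed to 51.8% to 53.1% of fibroblast counts, the 6 cardiomyocyte markers to 0.00791% to 0.0172%, and no marker of either list was at 0 in fibroblasts. The 2 endothelial markers summed to 0.0840% to 0.0966% of exosome counts and 0.0100% to 0.0152% of fibroblast counts, so they were higher in exosomes as were 3 of the entries described here; their part in those results was not tested. In exosomes the mesenchymal markers took 0.180%, 0.235% and 1.36% of counts, with the most in the unnumbered library; its scaling factor, by the TMM method that evens out library composition, was 0.433 against 1.34 and 1.13 in exosome libraries 1 and 2. Levels are given as CPM after that scaling (counts of a miRNA for every 1000000 of the library), and differences are log2 fold changes of exosomes over fibroblasts from edgeR's quasi-likelihood test on all 698 miRNAs past the count filter.

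The 10 entries together made up 0.0857%, 0.0884% and 0.110% of counts in exosome libraries 1, 2 and unnumbered, against 2.33%, 2.16% and 0.267% in fibroblast libraries 1, 2 and 4. The groups did not overlap (two-sided exact permutation test, p = 0.1, which is the lowest value possible with 3 libraries a group). With miR-873-3p left out of the total exosomes held 0.567%, 0.697% and 1.11%, against 2.36%, 2.17% and 0.274% for fibroblasts, and the groups overlapped (exact two-sided permutation p = 0.4). These are shares of a library, so fewer copies of a miRNA and more of other miRNAs cannot be told apart.

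All 10 entries passed the count filter, and 5 passed the test: miR-10a-5p and miR-10b-5p were lower in exosomes, and miR-10a-3p, miR-196b-3p and miR-196c-5p were higher (edgeR, p-values adjusted by the Benjamini-Hochberg method over all miRNAs). Of all miRNAs tested 29.9% passed, 18.6% as lower and 11.3% as higher. After TMM scaling the exosome and fibroblast levels did not overlap for these 5 entries, as for 39.3% of all miRNAs tested. As shares of the plain total, miR-196c-5p and miR-196b-3p overlapped between the groups. The unnumbered exosome library held 8.40 and 58.8 CPM of the plain total, against 11.8 and 97.5 CPM in fibroblast library 2. For miR-10a-5p, miR-10b-5p and miR-10a-3p the groups stayed apart on plain shares as well. The median log2 fold change was 0.14 over the 10 entries and -0.15 over all tested. Since miR-10a-3p, miR-196a-5p, miR-196b-5p, miR-196c-5p and miR-196c-3p passed the filter only with exosome reads, these counts and the median are descriptions. With miR-873-3p left out of library sizes the log2 fold changes of miR-10a-3p, miR-196b-3p and miR-196c-5p were 5.87, 4.29 and 6.59, where the median of all miRNAs was 2.37. The direction of change differed between the entries, and in the miR-10a hairpin it differed between the arms of the same precursor.

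**Figure D1:**
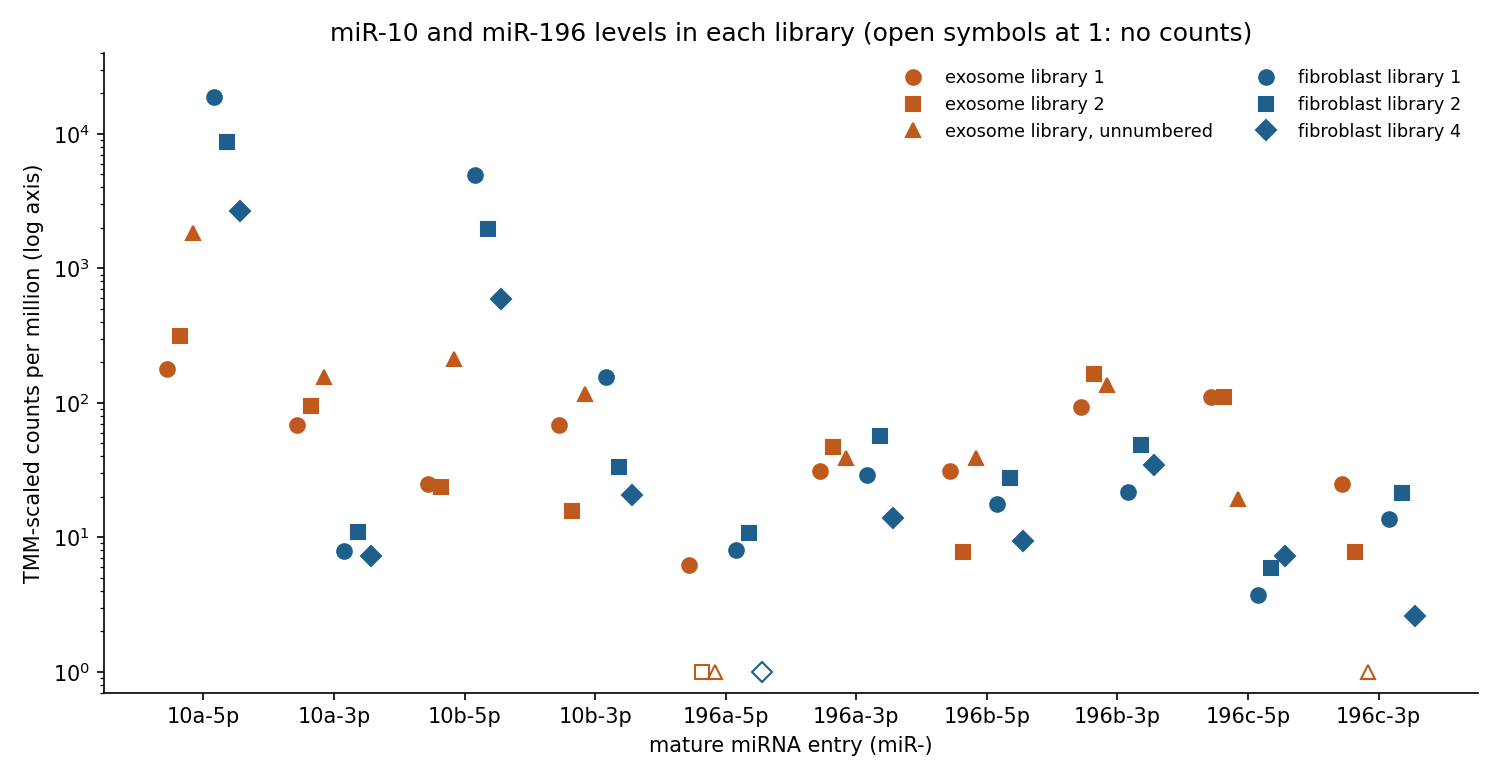
TMM-scaled CPM (log axis) of the 10 miR-10 and miR-196 entries in each library, exosome libraries in orange and fibroblast libraries in blue; open symbols at 1 stand for no counts. The fibroblast libraries hold between 2683 and 18875 CPM of miR-10a-5p, while no miR-196 entry passes 165 CPM in any library.

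rno-miR-10a-5p, the guide arm of miR-10a, was the most abundant entry. It had 29, 40 and 94 counts in exosome libraries 1, 2 and unnumbered, against 116484, 216206 and 5185 counts in fibroblast libraries 1, 2 and 4. These counts correspond to 180, 313 and 1824 CPM in exosomes and 18875, 8692 and 2683 CPM in fibroblasts. The highest exosome value, in the unnumbered library, stayed below the lowest fibroblast value, in library 4. By count it ranked 128th, 69th and 25th among the 728 miRNAs of the exosome libraries and 11th, 9th and 40th in the fibroblast libraries. It was 13.2-fold lower in exosomes (log2 fold change -3.73, SE 1.25, edgeR adjusted p = 0.012). The call was lost without exosome library 1 (log2 fold change -3.29, edgeR adjusted p = 0.11) and without exosome library 2 (-3.74, edgeR adjusted p = 0.082). Without the unnumbered library, the highest in mesenchymal markers, the log2 fold change was -5.35 (edgeR adjusted p = 0.00018), and with miR-873-3p left out of library sizes it was -1.63 (edgeR adjusted p = 0.039). Over all settings run the adjusted p lay between 3.8e-09 and 0.11.

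rno-miR-10b-5p, the guide arm of miR-10b, showed the largest decrease of the 10 entries. In exosomes it had 4, 3 and 11 counts, against 30332, 48651 and 1146 counts in fibroblast libraries 1, 2 and 4. Its levels were 24.8, 23.5 and 213 CPM in exosomes against 4915, 1956 and 593 CPM in fibroblasts. It was 32.9-fold lower in exosomes (log2 fold change -5.04, SE 1.07, edgeR adjusted p = 5.0e-05), and the adjusted p was at most 0.0092 over all settings run. The size moved between settings, with a log2 fold change of -6.69 without the unnumbered exosome library and -2.81 with miR-873-3p left out of library sizes. The exosome level rests on 18 reads in all.

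The passenger arm rno-miR-10a-3p went the other way. It had 11, 12 and 8 counts in exosomes and 49, 273 and 14 counts in fibroblasts, which correspond to 68.1, 94.0 and 155 CPM in exosomes against 7.94, 11.0 and 7.24 CPM in fibroblasts. Every exosome library lay above every fibroblast library. It was 11.3-fold higher in exosomes (log2 fold change 3.49, SE 0.68, edgeR adjusted p = 1.3e-05), with an adjusted p of at most 0.0498 over all settings run. It passed the count filter through its exosome reads, since the filter asks for 7.81 CPM of the plain total in 3 libraries and only 1 fibroblast library reached that; with no filter it was also called (edgeR adjusted p = 4.4e-05).

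rno-miR-10b-3p, the passenger arm of miR-10b, did not pass the test. It had 11, 2 and 6 counts in exosomes and 968, 823 and 40 counts in fibroblasts, at 68.1, 15.7 and 116 CPM against 157, 33.1 and 20.7 CPM. The groups overlapped, and its log2 fold change was -0.23 (SE 0.64, edgeR adjusted p = 0.83). Its sign depended on the scaling (2.41 with miR-873-3p left out of library sizes, where it was called with an edgeR adjusted p = 0.021 and the median of all miRNAs was 2.37).

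**Figure D2:**
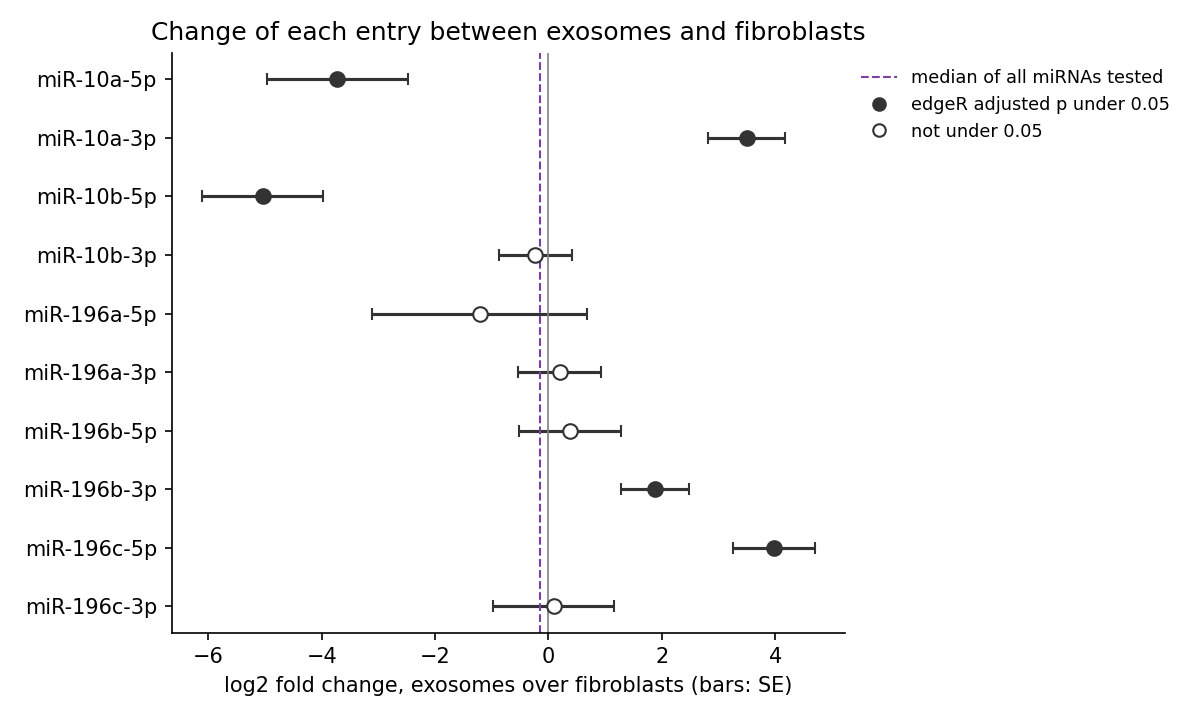
Log2 fold change of exosomes over fibroblasts for each entry, with its standard error; filled points have an edgeR adjusted p under 0.05 and the dashed line is the median of all miRNAs tested, -0.15. The miR-10 5p arms lie at -3.73 and -5.04, while miR-10a-3p and miR-196c-5p lie at 3.49 and 3.98.

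The next comparison asked whether the balance of the arms of each hairpin differed between exosomes and cells. A share of arms is taken within a library and so does not depend on scaling between libraries. Of the miR-10a reads, the 5p arm made up 72.5%, 76.9% and 92.2% in exosomes (95% Clopper-Pearson intervals 56.1 to 85.4, 63.2 to 87.5 and 85.1 to 96.6), against 99.96%, 99.87% and 99.73% in fibroblasts. Each exosome interval lay below every fibroblast share. The 5p arm thus averaged 80.5% ± 10.3 over exosome and 99.9% ± 0.115 over fibroblast libraries (SD, n = 3 each). Because PCR copies molecules, these intervals and the limits set by 0 counts describe counting error alone.

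The 5p arm of miR-10b made up 26.7%, 60.0% and 64.7% of its hairpin's reads in exosomes, on 15, 5 and 17 reads, against 96.9%, 98.3% and 96.6% in fibroblasts. The upper bounds of the exosome intervals were 55.1%, 94.7% and 85.8%, so that all lay under the fibroblast shares. Arm use differed between exosomes and fibroblasts in 83 of the 248 hairpins with both arms past the filter, or 33.5% (edgeR's diffSpliceDGE with Benjamini-Hochberg adjustment over hairpins). In 17.3% of the hairpins the 5p share was lower in exosomes and in 16.1% it was higher. The ratio of 5p to 3p was lower in exosomes for miR-10a (log2 change -7.22, edgeR's diffSpliceDGE adjusted p = 1.9e-12) and for miR-10b (log2 change -4.81, edgeR's diffSpliceDGE adjusted p = 1.0e-05). The p of miR-10a was the smallest of the 248 hairpins and its change the 5th in size. Its hairpin entered this test only because miR-10a-3p passed the filter through its exosome reads, so these ranks are descriptions. With no filter the log2 change of miR-10a was -7.09 (edgeR's diffSpliceDGE adjusted p = 2.3e-11). Over all settings in which the arms could be compared, the log2 change was -8.84 to -6.52 for miR-10a (edgeR adjusted p at most 0.00012) and -5.95 to -4.10 for miR-10b (edgeR adjusted p at most 0.012).

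**Figure D3:**
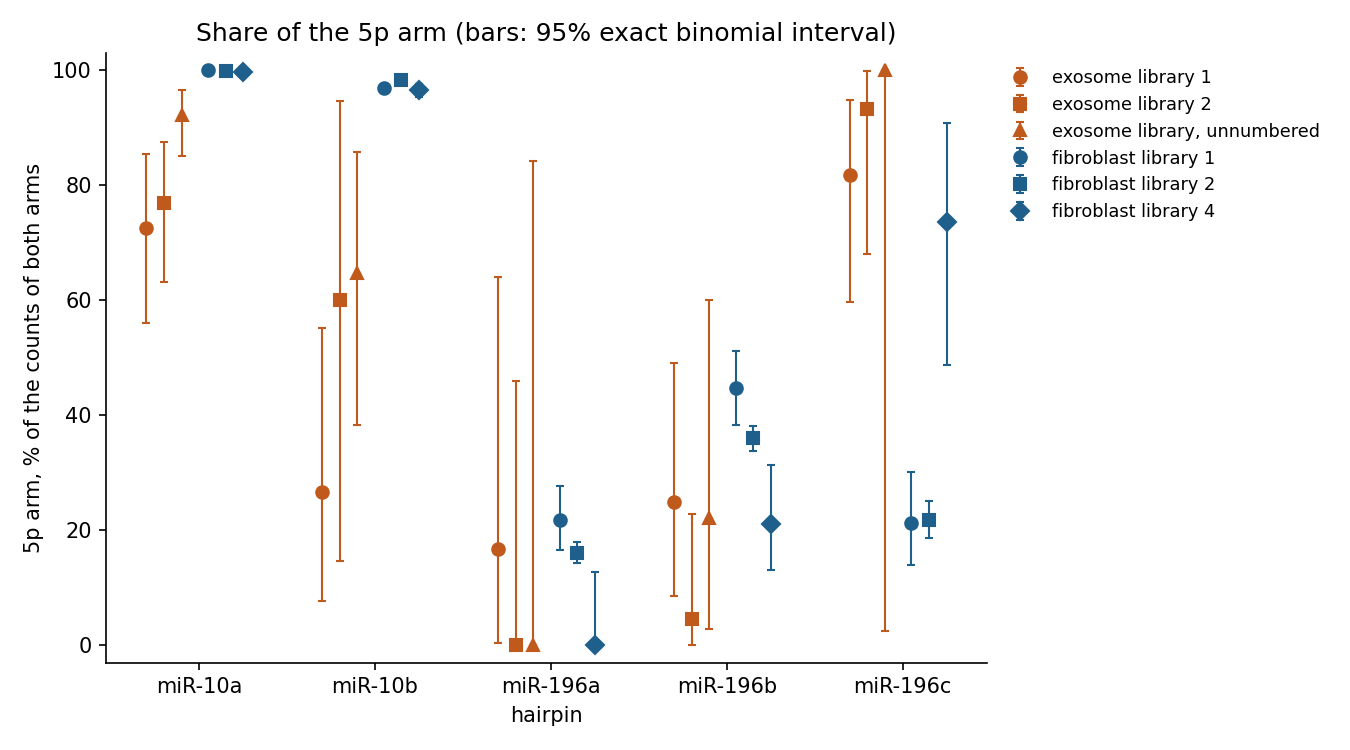
Share of the 5p arm among the reads of each hairpin, in percent, by library, with 95% exact binomial intervals; exosome libraries are orange and fibroblast libraries blue. For miR-10a and miR-10b the exosome shares of 26.7% to 92.2% lie under the fibroblast shares of 96.6% to 99.96%, whereas the 5p share of miR-196c is 81.8% to 100% in exosomes and 21.3% to 73.7% in fibroblasts.

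The miR-196 entries were scarce in both groups. rno-miR-196c-5p had 18, 14 and 1 counts in exosomes and 23, 147 and 14 counts in fibroblasts. Its levels were 111, 110 and 19.4 CPM in exosomes against 3.73, 5.91 and 7.24 CPM in fibroblasts, and the unnumbered exosome library, with a single read, was the lowest of its group. It was 15.8-fold higher in exosomes (log2 fold change 3.98, SE 0.72, edgeR adjusted p = 2.4e-06), with an adjusted p of at most 0.0091 in the settings that kept it past the filter. It too passed the filter only through its exosome reads, with a single fibroblast library above 7.81 CPM of the plain total; with no filter it was also called (edgeR adjusted p = 1.7e-05). Among all miR-196 5p reads, miR-196c-5p made up 75.0%, 93.3% and 33.3% in exosomes, on 24, 15 and 3 reads, against 12.6%, 13.3% and 43.8% in fibroblasts, on 182, 1102 and 32 reads. Exosome libraries 1 and 2 exceeded all fibroblast libraries, while the unnumbered library (95% Clopper-Pearson interval 0.840 to 90.6) lay below fibroblast library 4 (26.4 to 62.3).

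miR-196b-3p, the arm opposite miR-196b-5p, had 15, 21 and 7 counts in exosomes and 135, 1219 and 67 counts in fibroblasts. After TMM scaling its levels of 92.9, 165 and 136 CPM in exosomes all lay above the 21.9, 49.0 and 34.7 CPM of fibroblasts. As a share of the plain total miR-196b-3p overlapped between the groups. It was 3.68-fold higher in exosomes (log2 fold change 1.88, SE 0.61, edgeR adjusted p = 0.0093). This call was lost with total counts (edgeR adjusted p = 0.40), with library sizes that include reads outside the listed miRNAs (0.26), without exosome library 2 (0.17) or without fibroblast library 1 (0.059), and its lowest adjusted p over all settings was 3.8e-06. Relative to the median of all miRNAs its log2 fold change was 1.90 to 2.07 higher in the fits on all 6 libraries without a replicate block. It was 2.11 higher with the block, where only libraries 1 and 2 of each group inform the change.

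The other miR-196 entries did not pass the test and overlapped between the groups. rno-miR-196b-5p had 31.0, 7.84 and 38.8 CPM in exosomes and 17.7, 27.6 and 9.31 CPM in fibroblasts. miR-196a-3p had 31.0, 47.0 and 38.8 CPM in exosomes and 29.2, 56.5 and 14.0 CPM in fibroblasts. rno-miR-196a-5p had 1, 0 and 0 counts in exosomes and 50, 269 and 0 counts in fibroblasts, so a decrease was not detectable at this exosome depth. miR-196c-3p had 4, 1 and 0 counts in exosomes and 85, 528 and 5 counts in fibroblasts. The signs of miR-196a-3p, miR-196b-5p and miR-196c-3p turned with the scaling between libraries. With miR-873-3p left out of library sizes miR-196a-3p was called higher (log2 fold change 2.50, edgeR adjusted p = 0.036), where the median of all miRNAs was 2.37.

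In the miR-196a and miR-196b hairpins the 3p arm held most of the reads in every library of both groups. The 5p share of miR-196b was 25.0%, 4.55% and 22.2% in exosomes and 44.7%, 36.0% and 21.2% in fibroblasts, and its arm change did not pass (log2 change of 5p over 3p -1.50, edgeR's diffSpliceDGE adjusted p = 0.31). That of miR-196a was 16.7%, 0% and 0% in exosomes, on 6, 6 and 2 reads, and 21.7%, 16.1% and 0% in fibroblasts (log2 change -1.42, edgeR's diffSpliceDGE adjusted p = 0.57). For miR-196c the 5p share was higher in exosomes, at 81.8%, 93.3% and 100%, against 21.3%, 21.8% and 73.7% in fibroblasts (log2 change 3.89, edgeR's diffSpliceDGE adjusted p = 0.0055). The 95% Clopper-Pearson intervals in exosomes were 59.7 to 94.8, 68.1 to 99.8 and 2.50 to 100. All overlapped that of fibroblast library 4, 48.8 to 90.9. The miR-196c hairpin entered this test only because both its arms passed the filter with their exosome reads. For miR-196a and miR-196b this held for the 5p arm, which for miR-196a had a single exosome read. The results of these 3 hairpins are therefore descriptions. With no filter the log2 change of miR-196c was 3.90 (edgeR's diffSpliceDGE adjusted p = 0.0072). The unnumbered exosome library held 1 read of this hairpin, and fibroblast library 4 held 19. Over the settings in which the miR-196c arms could be compared the log2 change was 3.29 to 4.95, with an adjusted p of at most 0.044.

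The balance between the miR-10 paralogues was compared next, as another ratio free of the scaling between libraries. For each 100 counts of miR-10a-5p there were 13.8, 7.50 and 11.7 counts of miR-10b-5p in exosome libraries 1, 2 and unnumbered, against 26.0, 22.5 and 22.1 in fibroblast libraries 1, 2 and 4. The groups did not overlap. The log2 ratio averaged -3.09 ± 0.41 over exosome and -2.09 ± 0.13 over fibroblast libraries (SD, n = 3 each), a difference of -1.00 (exact two-sided permutation p = 0.1, the smallest possible here). As a share of both, miR-10b-5p made up 12.1% (95% Clopper-Pearson interval 3.40 to 28.2), 6.98% (1.46 to 19.1) and 10.5% (5.35 to 18.0) in exosomes, against 20.7%, 18.4% and 18.1% in fibroblasts. Only the interval of the unnumbered library excluded all 3 fibroblast shares.

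**Figure D4:**
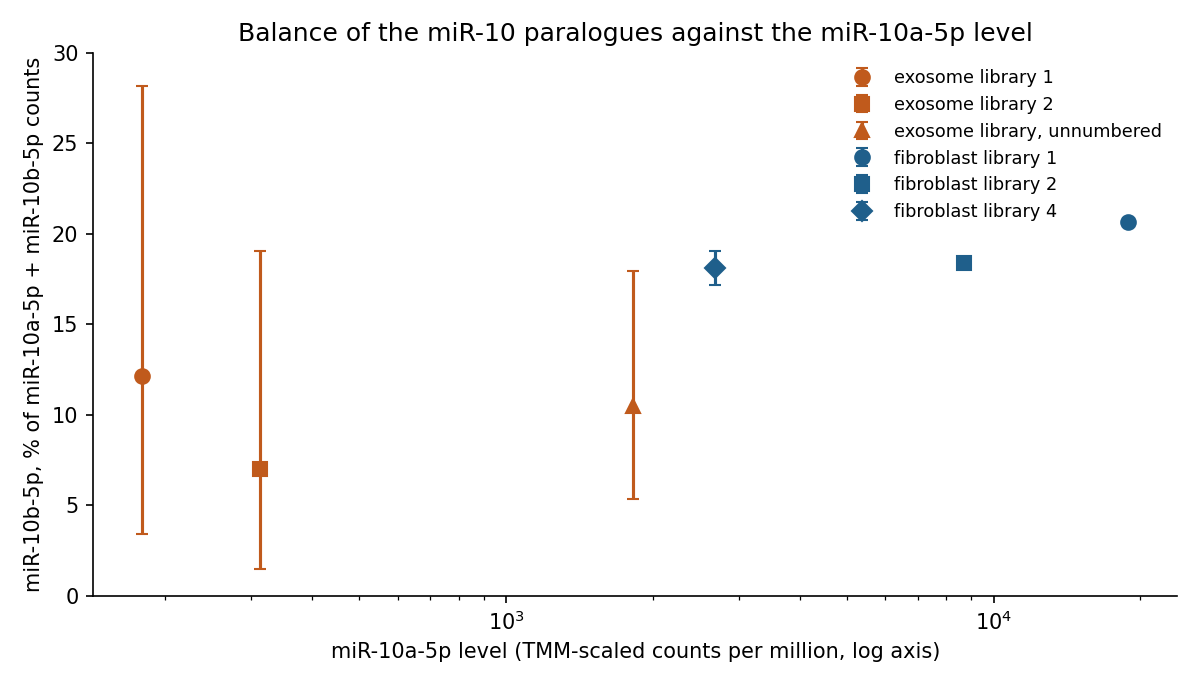
Share of miR-10b-5p in the summed miR-10a-5p and miR-10b-5p counts (percent, with 95% exact binomial intervals) against the miR-10a-5p level (TMM-scaled CPM, log axis), for exosome (orange) and fibroblast (blue) libraries. The fibroblast shares stay between 18.1% and 20.7% while the level runs between 2683 and 18875 CPM; the exosome shares are 6.98% to 12.1%.

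Among the fibroblast libraries the miR-10 guide arms varied widely. Library 1 held the most and library 4 the least, 7.04-fold apart for miR-10a-5p and 8.29-fold apart for miR-10b-5p. Measured as the log2 of the highest over the lowest fibroblast level, with 0.5 CPM added, these spreads were 2.81 and 3.05, the 26th and 16th widest of the 698 miRNAs tested, where the median was 1.23. miR-10b-3p followed, 7.58-fold apart, whereas miR-10a-3p was 1.51-fold apart on as few as 14 reads. Among the miR-196 entries, miR-196c-3p was 8.20-fold apart (log2 spread 2.82, the 25th widest) on as few as 5 reads, and miR-196a-5p, with 0 counts in library 4, had a log2 spread of 4.50, the 2nd widest. These spreads are after TMM scaling, with factors of 0.968, 1.99 and 0.792 in fibroblast libraries 1, 2 and 4. As shares of the plain total, the mesenchymal markers summed to 51.8% to 53.1% in the same libraries. On that plain measure miR-10a-5p took 18265, 17285 and 2125 of every 1000000 counts, and miR-10b-5p 4756, 3889 and 470. miR-10a-3p took 7.68, 21.8 and 5.74, a wider spread than after scaling.

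The non-member miRNAs whose levels followed miR-10a-5p most closely over the 6 libraries were miR-6215, miR-101a-3p and miR-29a-3p. Likeness was the root mean square difference of log2 CPM after centring each miRNA on its own mean, and came to 0.50, 0.78 and 0.82, against a median of 2.66 over all non-members past the filter. The paralogue miR-10b-5p lay at 0.63 from miR-10a-5p. For miR-10b-5p the closest were miR-34c-5p (0.73), miR-30c-5p (0.82) and miR-26a-5p (0.88), with a median of 3.13. Fibroblast library 1 exceeded library 4 by 4.41-fold for miR-6215, but by 1.43-fold to 2.00-fold for the other 5, so these shared the exosome decrease and less of the difference between fibroblast libraries.

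Families related by sequence or by genome position were set beside the members. The seed of miR-99 and miR-100 differs from that of miR-10a, as the sequences show, with the seed in capitals.
miR-99b-5p: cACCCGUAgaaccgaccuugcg
miR-100-5p: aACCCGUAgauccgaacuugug
let-7a-5p: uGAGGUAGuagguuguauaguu

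Of the 6 miR-99 and miR-100 entries, 3 were lower and 1 was higher in exosomes, with a median log2 fold change of -1.10 (-0.15 over all tested, of which 18.6% were lower and 11.3% higher). Those called lower were 2 without exosome library 1 and 1 without exosome library 2. With miR-873-3p left out of library sizes 1 was lower and 3 were higher. There 378 of all 696 miRNAs tested were higher and 36 lower, and their median log2 fold change was 2.37. Those lower in the fit on all libraries were miR-99b-5p (log2 fold change -4.46, SE 1.26), miR-100-5p (-3.27, SE 0.96) and miR-99a-5p (-2.60, SE 0.89), all guide arms (edgeR adjusted p = 0.0025, 0.0038 and 0.015). The passenger arm miR-99a-3p was higher (3.70, SE 0.78, edgeR adjusted p = 4.9e-05), with 514, 682 and 1591 CPM in exosomes and 65.0, 45.2 and 102 CPM in fibroblasts. Unlike the miR-10 guide arms, miR-99b-5p was not lowest in fibroblast library 4, with 13697 CPM there against 6803 and 6077 CPM in libraries 1 and 2. Which library was highest depended on the scaling. Its counts were 41984, 151161 and 26470 in libraries 1, 2 and 4, of totals of 6377441, 12508651 and 2439559. By that plain share library 2 was highest and library 1 lowest.

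The miR-196 seed AGGUAGU occurs in let-7a-5p from base 3, shifted by a base from the let-7 seed. All 8 let-7 family 5p entries were lower in exosomes, with log2 fold changes of -6.76 for let-7b-5p to -3.20 for miR-98-5p and a median of -4.72; of all miRNAs tested 18.6% were lower. Without exosome library 1, and likewise without exosome library 2, 5 of the 8 were called, and 7 with miR-873-3p left out of library sizes. The 3 miR-196 5p entries gave -1.22, 0.38 and 3.98, of which only that of miR-196c-5p passed the test. miR-615, another Hox cluster miRNA, whose gene lay between Hoxc5 and Hoxc4, had 384, 321 and 408 CPM in exosomes and 447, 464 and 962 CPM in fibroblasts and did not pass (log2 fold change -0.75, SE 0.73, edgeR adjusted p = 0.47).

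In the authors' deposited table, whose log2 fold changes run fibroblasts over exosomes, 0 of the 10 entries had an adjusted p under 0.05, where 7.28% of all 728 miRNAs did. An unadjusted p under 0.05 was given there for 2 of the 10, miR-10b-5p (log2 4.82 in the authors' deposited table, p = 0.023, adjusted p = 0.23) and miR-10a-5p (log2 3.68, p = 0.032, adjusted p = 0.29). For miR-196c-5p the authors' deposited table gave a log2 of -3.91 (adjusted p = 0.42) and for miR-10a-3p one of -3.68 (adjusted p = 0.90). The directions of these 4 equal those of the edgeR fit once the sign is turned. DESeq2 on the raw counts called the same number, 5 of 10, where miR-196a-5p was given no adjusted p. Of all miRNAs with an adjusted p it called 31%.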

How the data were processed

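Small RNA libraries from 3 exosome and 3 fibroblast samples were analysed. Input to all tests were the raw counts, whole numbers of reads for each mature miRNA, as deposited by the authors. A normalized signal, also deposited by the authors, proved to be reads divided by 1 factor for each library: every value was a whole multiple of that step to within 0.05 reads, and the reads summed to 99.3% to 99.8% of the raw counts. The last line of that table names no miRNA, held 63.1% to 84.4% of the reads, and served only as an alternative library size. The authors' deposited comparison lists, per the file headers, the fold change (a ratio), log2 fold change, p-value and adjusted p-value. Per the submitters' processing notes, the tools were CASAVA 1.8.2, cutadapt 1.2.1 and DESeq, with build rn5. How reads were aligned and assigned, and to which miRNA release, is not given in the sources used here.

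Library totals of 113129 to 12508651 counts set the precision, and the exosome depth limits scarce entries. The fit used edgeR 4.0.16 (R 4.3.3) with filterByExpr at a minimum count of 10 and a minimum total of 15, TMM factors, and a two-sided quasi-likelihood test of exosome against fibroblast, adjusted over 698 miRNAs with a threshold of 0.05. The SE is the absolute log2 fold change over the square root of F. Arm use was tested with diffSpliceDGE. Shares and ratios (pseudocount 0.5) used exact permutation tests. The main fit was also run on counts simulated from fibroblast means, with 200 miRNAs changed by a log2 of 3 either way. It recovered 152 of the 190 changed miRNAs past the filter, with 5 false calls. The simulation did not hold the large miR-873-3p share of the exosome libraries, so it cannot judge the scaling there. The alternatives were DESeq2 1.42.0, 3 other library sizes, no filter, the reads behind the normalized table, a replicate block and leaving out each library. Named miRNAs were all entries of the 5 hairpins, the 3 most alike to each miR-10 guide arm, and up to 4 called entries of each related family; for let-7 only the ends of the range are named. The entries and lists were chosen with earlier results of these data known.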

Additional observations from a re-analysis of the deposited data

How the results depend on the processing

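The number of the 10 entries called was 5; it was 7, with 5 higher and 2 lower, when miR-873-3p was left out of library sizes, and 3 with library sizes that include reads outside the listed miRNAs; leaving out single libraries gave 3 to 5, with 3 without exosome library 2. Over all miRNAs the number called was 209 of 698 tested, and lay between 134 (without exosome library 2) and 214 when single libraries were left out. With miR-873-3p left out of library sizes it rose to 414 of 696 tested, with 378 higher and 36 lower. In that setting 9 of the 10 entries were tested. In the related families 12 entries were called, and 7 (without exosome library 2) to 12 with single libraries left out. Arm use was called in 83 hairpins, and in 38 to 91 with single libraries left out: 38, 39 and 42 without fibroblast libraries 1, 2 and 4, in which only 402, 359 and 414 miRNAs passed the filter. In these fits the miR-196 arms, and without fibroblast library 1 those of miR-10b, could not be compared. The median log2 fold change of all miRNAs moved from -0.15 to -0.57 with total counts, 2.37 without miR-873-3p and -0.96 with reads outside the listed miRNAs.

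Among entries not called in the first fit the sign turned as follows. miR-10b-3p gave 2.41 without miR-873-3p in library sizes and -0.74 to 0.066 with single libraries left out (0.066 without exosome library 2). miR-196a-3p gave -0.45 with total counts, -0.66 with reads outside the listed miRNAs, -0.02 (-0.0169) with no filter, -0.10 with the replicate block and -0.16 (without exosome library 2) to 0.22 with single libraries left out. miR-196b-5p gave -0.24, -0.55 and -0.13 with total counts, reads outside the listed miRNAs and the block, and -0.14 (without exosome library 1) to 0.68 with single libraries left out. miR-196c-3p gave -0.45 and -0.77 with these library sizes, -0.16 with no filter, -0.0044 with the block and -1.45 (without exosome library 1) to 0.41 with single libraries left out. The cause was not tested.

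The difference of the miR-10 log2 ratio was -1.20 to -0.79 with single libraries left out, and that of the summed share -2.15 to -1.12 percentage points, or -1.47 to -0.43 without miR-873-3p in the total. Exosomes and fibroblasts share the sample numbers 1 and 2 alone, and nothing in the labels says that they mark a pair; deviations from the group means correlated by -0.04 for number 1 and 0.15 for number 2. The replicate block called the same number of entries, 5, and 234 miRNAs in all. Its log2 fold changes were -5.74 for miR-10a-5p and -7.09 for miR-10b-5p. Only libraries 1 and 2 of each group inform these changes. They leave out the unnumbered exosome library and the fibroblast library with no shared number. For both miR-10 guide arms these were the highest exosome and the lowest fibroblast library. Arm use under the other library sizes was added after seeing the data. In the exosome libraries a share under 0.0025% could not be told from 0.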
